A study of Mus musculus with 4 samples.

Results

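The vascular endothelial growth factors (VEGFs), the angiopoietins and their receptors are described here in cultured mouse 4T1 cells, a mammary carcinoma line, with and without knockdown of Ldha, which encodes the A subunit of lactate dehydrogenase. The gene names chosen were the ligands Vegfa, Vegfb, Vegfc and Pgf, the receptors Flt1 and Kdr, the angiopoietins Angpt1 and Angpt2, and the angiopoietin-like Angptl4 and Angptl2. A probe set of the array was taken where its platform annotation gave exactly 1 of these symbols. This found 10 probe sets for 9 of the 10 names, among 22180 genes and 41345 probe sets in all. Angptl2 had no such probe set and was not analysed here.

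Each group held 2 arrays. The control cells (scramble) carried a short hairpin RNA of scrambled sequence, and the knockdown cells (shLDHA) carried a hairpin against Ldha. The shLDHA cells had been selected with 10 µg/ml puromycin and mixed into a pool. Selection of the scramble cells is not stated, so selection and knockdown cannot be told apart. Both were kept for 24 hours in complete RPMI medium, outside a tumour host, and 400 ng of total RNA went onto each whole-transcript array. Values are log2 expression. No label says that the arrays of a group came from separate cultures, so the p-values measure the spread between arrays, which may be technical.

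VEGFs are secreted dimers that bind receptor tyrosine kinases, chiefly on endothelial cells. VEGFA binds both FLT1 (VEGFR1) and KDR (VEGFR2), whereas VEGFB and placental growth factor, the product of Pgf, bind FLT1. VEGFC acts mainly through FLT4 (VEGFR3) on lymphatic endothelium, and neuropilins serve as co-receptors. Angiopoietins bind the receptor TIE2, the product of Tek, while the angiopoietin-like proteins do not and have other roles, such as the inhibition of lipoprotein lipase by ANGPTL4. Carcinoma cells are a known source of VEGFA, and its gene is a textbook target of the hypoxia-inducible factors (HIF).

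Of the 9 genes measured, 2 fell in shLDHA and 0 rose. The fallen genes were Pgf, 1.78-fold lower, and Flt1, 1.56-fold lower, which encode a ligand and the receptor it binds. The other ligands of the receptor, Vegfa and Vegfb, did not pass the test, and neither did Vegfc. The test was a limma fit over all genes, passed where the p-value after Benjamini-Hochberg adjustment was under 0.05. By that rule 2.99% of all genes were lower and 3.37% higher, 6.36% in either direction. Among genes brighter than 95% of olfactory receptor genes, which are silent in most tissues, the shares were 5.72% and 6.22%, 11.9% together. At an unadjusted p under 0.05 the counts among the 9 were also 2 lower and 0 higher. Of all 22180 genes, 2266 were lower and 2512 higher at that threshold. These all-gene counts belong beside every unadjusted count of a list given below. The median log2 change of the 9 was -0.02, against 0.01 over all genes tested.

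The sequences before the starts of Pgf and Flt1 are shown because these are the genes that fell, and that of Vegfa because it shares the receptor and did not pass. Each is the 250 bases upstream of the outermost listed gene start in RefSeq, build GRCm38.p6, written 5′ to 3′ on the gene's strand. Pgf lies at chr12:85177314-85177563, Flt1 at chr5:147726012-147726261 and Vegfa at chr17:46032378-46032627, each on the minus strand. Capitals mark matches on either strand to the HIF core ACGTG or GCGTG, the cAMP response element TGACGTCA, the GC box GGGCGG and the TATA box TATAAA. None of these strings contains another.
Pgf: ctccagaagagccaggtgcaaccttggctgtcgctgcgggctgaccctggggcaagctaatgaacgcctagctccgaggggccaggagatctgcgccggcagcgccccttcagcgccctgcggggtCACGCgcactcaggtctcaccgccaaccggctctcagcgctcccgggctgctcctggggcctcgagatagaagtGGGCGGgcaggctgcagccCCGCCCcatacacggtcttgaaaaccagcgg
Flt1: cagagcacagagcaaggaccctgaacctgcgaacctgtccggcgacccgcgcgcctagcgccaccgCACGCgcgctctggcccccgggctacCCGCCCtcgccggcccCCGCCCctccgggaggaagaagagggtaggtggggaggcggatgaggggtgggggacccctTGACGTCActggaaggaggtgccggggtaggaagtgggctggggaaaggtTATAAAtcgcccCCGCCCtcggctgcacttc
Vegfa: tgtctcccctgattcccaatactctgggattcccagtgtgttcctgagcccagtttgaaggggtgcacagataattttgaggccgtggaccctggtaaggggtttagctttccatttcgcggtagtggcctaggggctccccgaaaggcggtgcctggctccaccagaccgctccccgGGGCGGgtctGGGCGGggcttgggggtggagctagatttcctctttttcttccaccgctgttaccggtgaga

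The HIF core in the form GCGTG was found 1 time in the Pgf window, its first base 124 bases before the start, and 1 time in the Flt1 window, 184 bases before. Of 32851 promoter windows of the same length, 28.2% hold that form, 16.6% hold ACGTG and 38.6% hold at least 1 of them. The Vegfa window shown held neither form. RefSeq lists a second start for Vegfa and for Pgf, whose windows are not shown. There the second Vegfa window held both forms, at 218 and 211 bases before that start, and the second Pgf window held neither, so the contrast depends on the start. GC boxes numbered 2 in Pgf, 3 in Flt1 and 2 in Vegfa, and 32.7% of windows hold 1 or more. Flt1 alone of these 3 held a TATA box, 31 bases before its start (12.4% of windows), and a cAMP response element, 81 bases before it (1.55% of windows). The last 2 motifs were chosen after the sequences had been read. A match is a description of the letters only.

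**Figure D1:**
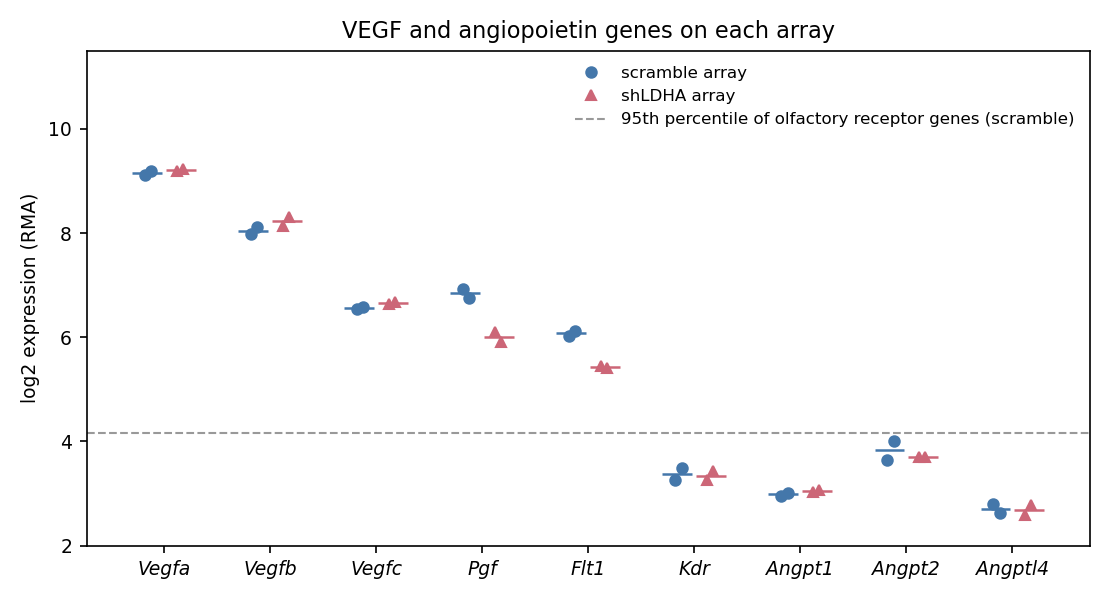
Log2 expression (vertical axis) of the 9 measured genes on every array, with 2 scramble arrays (circles) and 2 shLDHA arrays (triangles) per gene; short lines are group means and the dashed line, at 4.17, is the level below which 95% of olfactory receptor genes lie. Pgf and Flt1 are lower on both shLDHA arrays, and Kdr, Angpt1, Angpt2 and Angptl4 lie under the dashed line. Heights of different genes come from different probes and are not to be compared.

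Among the ligands, Pgf, first found in placenta and produced by many tumours, read 6.92 and 6.76 in scramble and 6.10 and 5.91 in shLDHA. Both shLDHA arrays lay below both scramble arrays. The mean was 6.84 ± 0.11 (SD, n = 2) in scramble and 6.01 ± 0.13 (SD, n = 2) in shLDHA. This gave a log2 change of -0.83 (SE 0.11, 95% interval -1.09 to -0.58) with a limma adjusted p of 0.00975. Counted from the most negative of all 22180 log2 changes, that of Pgf was number 159. Pgf passed in 12 of 13 alternative analyses. The exception was the fit without shLDHA replicate 2, where the log2 change was -0.74 and the adjusted p 0.0588.

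Vegfa, the main endothelial growth factor of the family, read 9.12 and 9.19 in scramble and 9.20 and 9.23 in shLDHA. The groups did not overlap, but the nearest arrays of each, at 9.194 and 9.196, were almost equal. Its log2 change was 0.06 (95% interval -0.14 to 0.26, adjusted p = 0.767). Vegfb, whose product binds FLT1 and not KDR, read 7.98 and 8.11 in scramble and 8.14 and 8.31 in shLDHA. The shLDHA arrays were the higher ones, with a log2 change of 0.18 (95% interval -0.06 to 0.42) and a limma adjusted p of 0.373. Vegfc, the lymphatic growth factor gene, read 6.53 and 6.57 in scramble and 6.65 and 6.69 in shLDHA, a log2 change of 0.11 (95% interval -0.08 to 0.31, adjusted p = 0.510). None of these 3 ligand genes passed in any of the 13 alternative analyses, and their log2 changes stayed above 0 in all of them, between 0.02 and 0.26.

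The change of Pgf was set against that of Vegfa array by array, so that a shift shared by all genes of an array cancels. With the scramble mean of the difference placed at 0, the arrays read 0.12 and -0.12 in scramble and -0.78 and -1.004 in shLDHA. The shLDHA mean was -0.89 ± 0.16 (SD, n = 2). For Flt1 less Vegfa the scramble arrays read -0.01 and 0.01 and the shLDHA arrays -0.67 and -0.73. For Flt1 less Pgf the arrays read -0.13 and 0.13 in scramble and 0.11 and 0.27 in shLDHA, which overlap. With 2 arrays against 2, a two-sided exact permutation test cannot go below p = 0.333, and it gave 0.333 for both differences from Vegfa and 0.667 for Flt1 less Pgf.

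Of the receptors, Flt1 read 6.03 and 6.12 in scramble and 5.44 and 5.42 in shLDHA. FLT1 is the high-affinity receptor of VEGFA, VEGFB and placental growth factor, and a shorter, soluble form of it can bind the ligands without signalling. The arrays of the groups were apart, at 6.08 ± 0.07 (SD, n = 2) and 5.43 ± 0.02 (SD, n = 2). The log2 change was -0.65 (SE 0.09, 95% interval -0.85 to -0.44, limma adjusted p = 0.0108). It passed in 11 of 13 alternative analyses, and did not pass without shLDHA replicate 1 (-0.66, adjusted p = 0.0576) or without shLDHA replicate 2 (-0.63, adjusted p = 0.0659). The single Flt1 probe set cannot tell the soluble form from the membrane form.

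Kdr, the receptor gene behind most VEGFA signalling in endothelium, read 3.26 and 3.50 in scramble and 3.26 and 3.43 in shLDHA. The groups overlapped, with a log2 change of -0.04 (95% interval -0.31 to 0.24, adjusted p = 0.908). Its means of 3.38 and 3.34 were under the level that 95% of 1105 olfactory receptor genes do not exceed, 4.17 in scramble and 4.16 in shLDHA. This level served as a floor. A gene counted as above it where the mean of either group was above the floor of that group. Of the 9 genes, 5 were above it and 4 below, and the same counts came from a floor of 289 vomeronasal receptor genes or from the 99th percentile. At the 99th percentile, 5.28 in scramble and 5.45 in shLDHA, Flt1 was above the floor in scramble only, its shLDHA mean being 5.43. A change in a gene at the floor may go unseen, so the call for Kdr does not show that its RNA was equal in both groups.

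The angiopoietin genes were at the floor as well. Angpt1, whose product activates TIE2, read 2.96 and 3.01 in scramble and 3.03 and 3.06 in shLDHA (log2 change 0.06, 95% interval -0.14 to 0.26). A second Angpt1 probe set read 2.87 and 2.67 in scramble and 2.99 and 3.27 in shLDHA, a log2 change of 0.36 with an adjusted p of 0.163 when every probe set was tested. Angpt2, whose product can oppose the first, read 3.65 and 4.01 in scramble and 3.71 on both shLDHA arrays (log2 change -0.12, 95% interval -0.43 to 0.18). Angptl4, the lipoprotein lipase inhibitor that also responds to hypoxia and to fatty acids through PPAR receptors, read 2.80 and 2.62 in scramble and 2.59 and 2.79 in shLDHA (log2 change -0.02, 95% interval -0.28 to 0.25). None of the 3 passed in an alternative analysis that tested it. Across the 9 genes the arrays of the groups were apart for 6, with shLDHA above for 4 and below for 2. Of all genes, 50.3% had arrays apart, 26.2% with shLDHA above and 24% with it below.

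The co-receptors and relatives outside the chosen genes were measured for 11 of 14 names, 1 of which rose and 1 fell (median log2 change 0.02). Both were neuropilins, which bind VEGFs and class 3 semaphorins. Nrp1, the co-receptor of VEGFA, read 5.43 and 5.20 in scramble and 6.34 and 6.25 in shLDHA, 1.98-fold higher (log2 change 0.98, SE 0.11, limma adjusted p = 0.00533). Nrp2, which binds VEGFC as well, read 10.50 and 10.56 in scramble and 9.98 and 9.82 in shLDHA, 1.54-fold lower (log2 change -0.62, SE 0.09, adjusted p = 0.0161). The arrays of the groups were apart for both genes, in opposite directions. Nrp1 passed in 13 of 13 alternative analyses, and Nrp2 in 11, not without scramble replicate 2 or shLDHA replicate 2 (log2 changes -0.59 and -0.54, adjusted p = 0.0614 and 0.0830). The change of Nrp1 less that of Nrp2 put the scramble arrays at 0.15 and -0.15 and the shLDHA arrays at 1.57 and 1.64. The receptor genes Flt4, Tek and Tie1 had log2 changes of 0.06, 0.10 and 0.20 and did not pass; their means, between 2.53 and 3.66, were under the floor. Vegfd, the closest relative of Vegfc, was also there (log2 change 0.00).

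**Figure D2:**
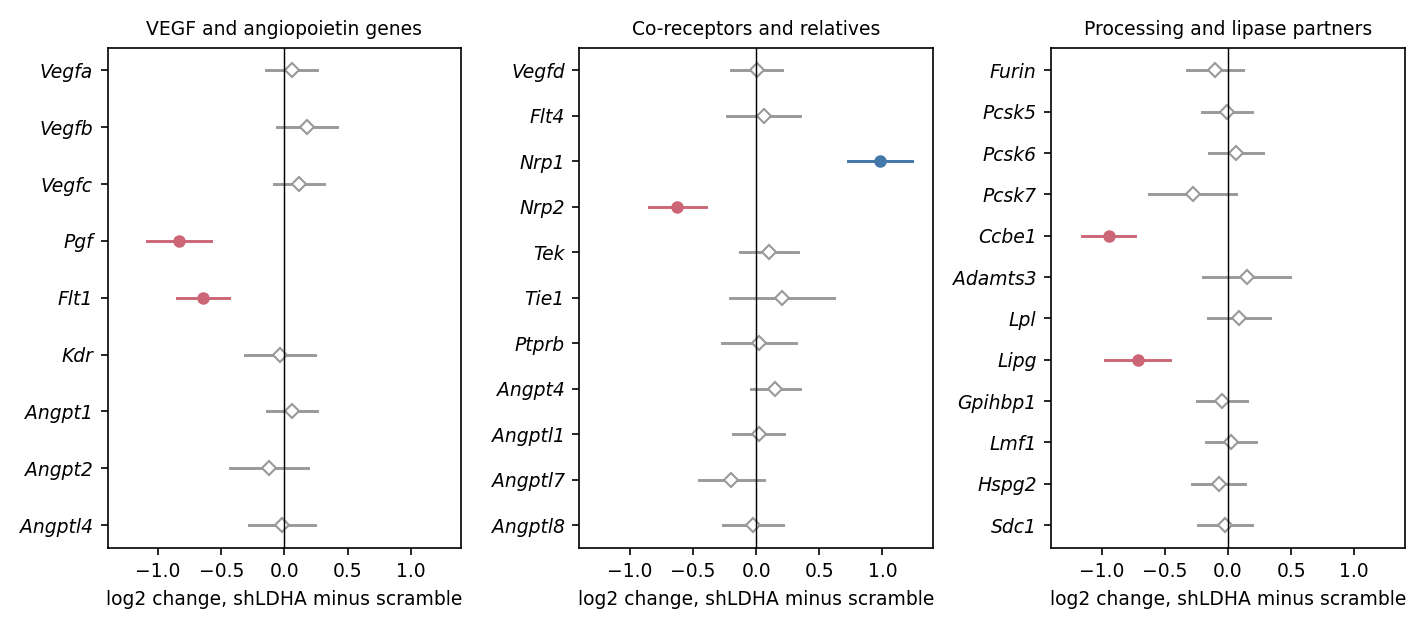
Log2 change, shLDHA minus scramble (horizontal axis), with its 95% interval from the limma fit, for the 9 measured genes, 11 co-receptors and relatives, and 12 processing enzymes and lipase partners. Filled circles are genes past an adjusted p of 0.05 and open diamonds are the rest; Pgf, Flt1, Nrp2, Ccbe1 and Lipg lie to the left of 0 and Nrp1 to the right.

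Of 12 genes that process VEGFs and angiopoietin-like proteins or are partners of the lipase, 2 fell and 0 rose (median log2 change -0.03). At an unadjusted p under 0.05 the counts were again 2 and 0. Ccbe1, whose secreted product helps the protease ADAMTS3 to activate VEGFC, read 8.71 and 8.77 in scramble and 7.85 and 7.74 in shLDHA. Both shLDHA arrays were lower, by 1.92-fold in the means (log2 change -0.94, SE 0.09, limma adjusted p = 0.00345), and the call held in 13 of 13 alternative analyses. Lipg, which encodes endothelial lipase, read 7.73 and 7.94 in scramble and 7.05 and 7.19 in shLDHA (log2 change -0.71, SE 0.11, adjusted p = 0.0161). It passed in 10 of 13 and lost the call without scramble replicate 2, shLDHA replicate 1 or shLDHA replicate 2, where the log2 change lay between -0.78 and -0.60. Furin, a protease gene of the same list, changed by -0.10 and did not pass, and Adamts3 and the lipase gene Lpl were under the floor.

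The HIF pathway was examined because Vegfa is one of its known targets. Of 10 HIF subunits and regulators, 0 passed in either direction, and at an unadjusted p under 0.05 the count was 1 lower, Hif1a, the oxygen-regulated subunit (log2 change -0.24). With the trended variance prior this Hif1a probe set passed as lower (adjusted p = 0.0381). A second, dimmer Hif1a probe set went the other way, with a log2 change of 0.45 and the arrays of the groups apart. When every probe set was tested, the dimmer one had an unadjusted limma p of 0.0062 and an adjusted p of 0.076. The brighter one then had 0.039 and 0.208. With the probe sets of each gene averaged, Hif1a changed by 0.10 (adjusted p = 0.557), so its direction was not settled. Of 14 hypoxia-induced genes other than Vegfa, 6 rose and 1 fell, with a median log2 change of 0.36. Of all genes whose mean over the arrays was above the floor, 6.22% were higher and 5.72% lower. The list was chosen with earlier results of these data known. The 6 that rose were Adm, Ddit4, Car9, Bnip3, P4ha1 and Kdm3a. The largest of these rises was that of Adm (log2 change 1.62, limma adjusted p = 0.00097), whose scramble mean of 3.49 was under the floor. Ddit4 rose by 0.99 and Car9 by 0.98 on the log2 scale (adjusted p = 0.0030 and 0.0036). Adm, Ddit4 and Car9 each passed in 13 of 13 alternative analyses, and P4ha1 (log2 change 0.55) in 9. Bnip3, a mitophagy receptor gene, read 6.43 and 6.29 in scramble and 6.94 on both shLDHA arrays (log2 change 0.58, limma adjusted p = 0.0173). Kdm3a, a histone demethylase gene, read 7.67 and 7.63 and then 8.12 and 8.11 (log2 change 0.47, adjusted p = 0.0250). The call of Kdm3a was lost with the replicate number as a block (adjusted p = 0.0559) and without any 1 of the 4 arrays. Without scramble replicate 2, shLDHA replicate 1 or shLDHA replicate 2 the count of rises was 3. The fall was that of Higd1a (log2 change -0.46, adjusted p = 0.0351), which lost the call without any 1 of the 4 arrays and with the replicate number as a block. At an unadjusted p under 0.05, 9 of the list were higher and 1 lower, with Mxi1 (0.37), Pfkfb4 (0.35) and P4ha2 (0.28) added to the rises. Of all 22180 genes tested, 2512 were higher and 2266 lower at that threshold. Vegfa (0.06), the glucose transporter gene Slc2a1 (-0.01), the glycolysis gene Pgk1 (0.05) and Ndrg1 (0.06) were hypoxia targets that did not pass at either threshold.

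PPAR receptors and their target genes, to which Angptl4 belongs, held 2 falls and 0 rises among 12 measured (median log2 change 0.06). At an unadjusted p under 0.05, 3 were lower and 2 higher. Ppard, which encodes the receptor PPARδ, read 7.97 and 8.12 in scramble and 7.26 and 7.35 in shLDHA, 1.67-fold lower (adjusted p = 0.00965). Plin2, the gene of a lipid droplet coat protein, read 9.89 and 9.87 and then 9.28 and 9.30, 1.501-fold lower (adjusted p = 0.0127). Without shLDHA replicate 1 neither passed (adjusted p = 0.0602 and 0.0682), and Plin2 also lost the call without scramble replicate 1 or shLDHA replicate 2. Pdk4, another PPAR target, was at the floor and did not pass (0.06).

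Other secreted or membrane-bound factors of vessel growth held 3 falls and 1 rise among 13 measured, with a median log2 change of -0.02. Dll4, the Notch ligand gene of sprouting vessels, read 5.78 and 5.62 in scramble and 5.02 and 4.83 in shLDHA (log2 change -0.78, limma adjusted p = 0.0130). Ecm1, a matrix protein gene, and Apln, the gene of the peptide apelin, also fell, by 0.56 and 0.46 on the log2 scale (limma adjusted p = 0.0407 and 0.0456). With the replicate number as a block neither Ecm1 nor Apln passed (limma adjusted p = 0.0540 and 0.0865). Pdgfb, which encodes the growth factor that recruits pericytes, rose from 5.81 and 5.97 to 6.47 and 6.67 (log2 change 0.68, adjusted p = 0.0178). None of these 4 genes kept its call in every fit that left out an array. Over the alternatives the log2 change lay between -0.87 and -0.68 for Dll4 and between -0.71 and -0.41 for Ecm1. It lay between -0.55 and -0.37 for Apln and between 0.58 and 0.78 for Pdgfb. Fgf2, the gene of basic fibroblast growth factor, was under the floor at 3.39 and 3.38 in scramble and did not pass (0.01).

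The inhibitors of angiogenesis held the largest changes of the lists described here apart from Adm. Of 10 measured, 1 rose and 1 fell (median log2 change 0.07), and both passed in 13 of 13 alternative analyses. The count of rises was 3 with the filter at the median level and 2 with the filter above the 25th percentile, a repeated quantile normalization or the trended prior. Thbs1, the gene of the matrix glycoprotein thrombospondin 1, read 8.06 and 8.16 in scramble and 9.37 and 9.32 in shLDHA, 2.36-fold higher (log2 change 1.24, SE 0.09, limma adjusted p = 0.00141). Adamts1, whose metalloprotease product binds VEGFA and cleaves matrix, read 9.34 and 9.45 and then 8.19 and 8.02, 2.45-fold lower (log2 change -1.29, SE 0.10, adjusted p = 0.00186). In both genes the arrays of the groups were far apart, in opposite directions. At an unadjusted p under 0.05 the list held 3 higher and 2 lower. Sema3f (log2 change 0.36) and Vash2 (0.28) were higher beside Thbs1, and Col18a1 (-0.25) was lower beside Adamts1. Vash2 was placed in this list, but its product is not an established inhibitor.

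**Figure D3:**
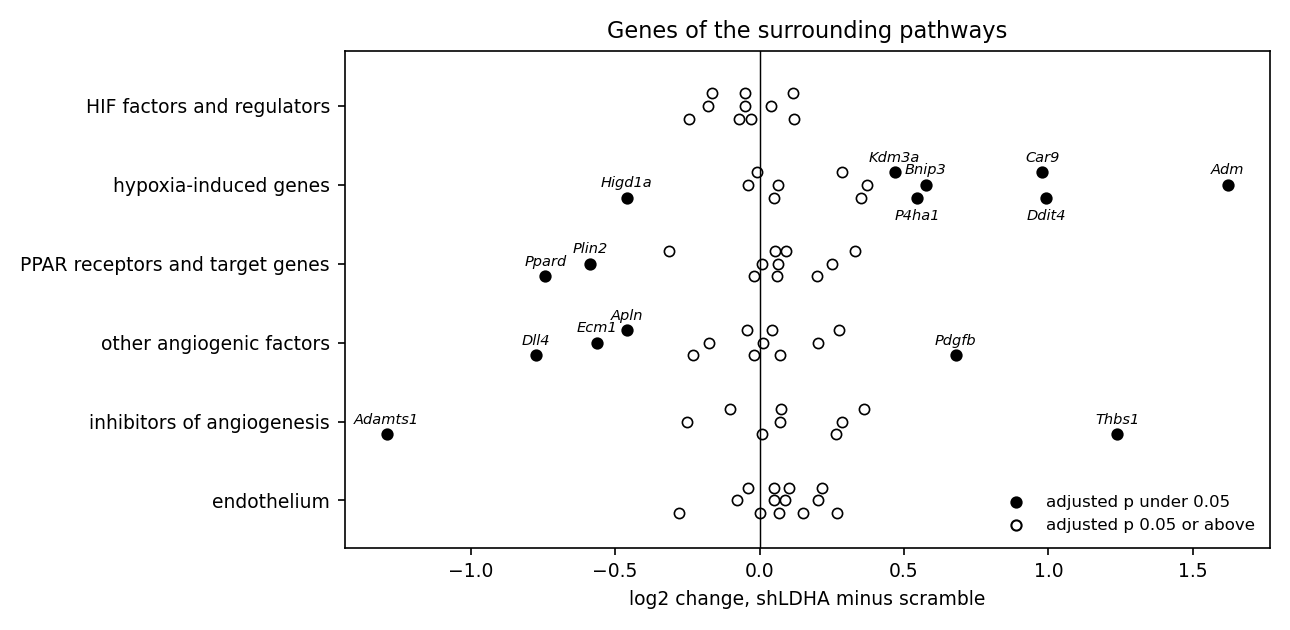
Log2 change, shLDHA minus scramble (horizontal axis), of each measured gene in 5 pathway lists and in the endothelial marker list; points are spread vertically only for legibility. Filled and named points passed an adjusted p of 0.05. Thbs1 (1.24) and Adamts1 (-1.29) stand at opposite ends of the inhibitor list, and no endothelial marker passed.

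By log2 profile over the 4 arrays, each gene first set to its own mean, the 3 genes nearest to Pgf in Euclidean distance were Rapgef2 (0.0557), Dll4 (0.0582) and Irs1 (0.0638). Rapgef2 read 7.65 and 7.56 in scramble and 6.86 and 6.65 in shLDHA, and Irs1 read 6.19 and 6.05 and then 5.37 and 5.12. With 4 arrays in 2 groups, this likeness is chiefly that of a fall of similar size.

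The cells carried the markers of epithelium and not those of endothelium. All 8 epithelial markers were above the floor, Cdh1 and Krt18 among them, but 2 of them rose and 1 fell. The adhesion molecule gene Epcam rose by 0.53 on the log2 scale (limma adjusted p = 0.0178) and the keratin gene Krt8 by 0.47 (adjusted p = 0.0255), while the tight junction gene Cldn7 changed by -1.06, 2.09-fold lower (adjusted p = 0.00242). The summed log2 level of the 8 was 68.8 and 68.7 in scramble and 68.6 and 68.5 in shLDHA. The part of these changes in the other results was not tested. All 13 endothelial markers, Pecam1 and Cdh5 included, were under it, and 0 passed, with 1 lower at an unadjusted p under 0.05. Their summed log2 level was 39.1 and 39.7 in scramble and 40.7 and 39.7 in shLDHA. Of 9 markers of mural cells and fibroblasts, 7 were under the floor and 0 passed. Of 9 leukocyte markers, 8 were under it, Ptprc included, and only Cd68, which passed as lower (log2 change -0.91), was above; its part in the results was not tested. In RNA from a whole culture, fewer cells with a transcript and less of it per cell cannot be told apart.

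The targeted gene, read from the single probe set that named only Ldha, checked the labels. Probe sets with several symbols were not used, so the fold change may not give the size of the knockdown. Ldha read 6.69 and 6.96 in scramble and 6.31 and 6.15 in shLDHA, 1.51-fold lower (log2 change -0.59, SE 0.12, limma adjusted p = 0.0390), and passed in 9 of 13 alternative analyses. It did not pass without scramble replicate 2, shLDHA replicate 1 or shLDHA replicate 2 (adjusted p = 0.128, 0.0965 and 0.163) or with the replicate block. Array medians lay between 3.87 and 3.90. Across genes, which are not independent replicates, arrays correlated at r = 0.997 within a group and r = 0.993 between groups.

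**Figure D4:**
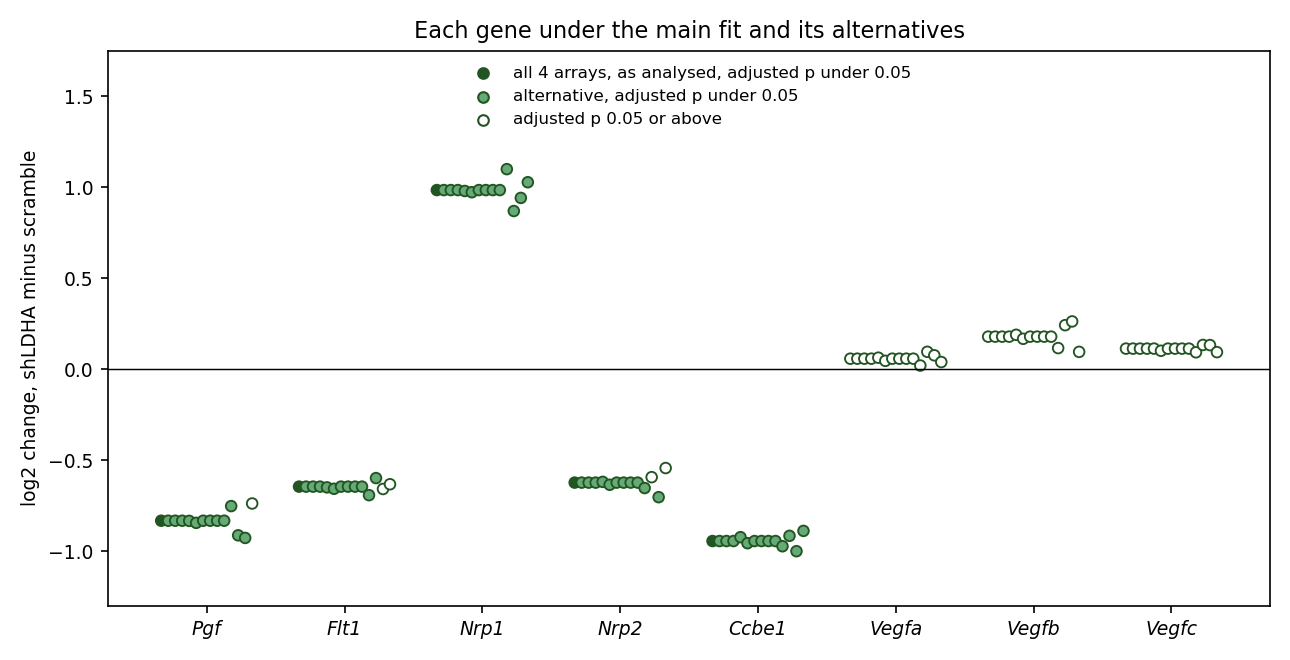
Log2 change, shLDHA minus scramble (vertical axis), of 8 genes in the analysis reported here (dark points) and in each of 13 alternatives, with points spread sideways only for legibility. Open points did not pass an adjusted p of 0.05. Pgf stays between -0.93 and -0.74 and Flt1 between -0.69 and -0.60, with open points only where an shLDHA array was left out, and Vegfa, Vegfb and Vegfc have open points only, all above 0.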

How the data were processed

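Total RNA of 4T1 cells was measured on 4 whole-transcript Affymetrix arrays, 2 scramble and 2 shLDHA. The values deposited by the authors are log2 expression, which RMA had produced (R 3.4.0), per the submitters' processing notes. The annotation version was not given in the sources used here. Of 41345 probe sets, 23521 had 1 gene symbol in the platform table, 1814 several and 16010 none; only the first were used, and the brightest probe set stood for each of 22180 genes. Dim genes were kept, and signals near the floor are compressed. The test was that of limma 3.58.1 (lmFit and eBayes, two-sided, R 4.3.3) with Benjamini-Hochberg adjustment over all genes. SDs are over 2 arrays. The code was tested on simulated data. Alternatives are given at the end. All chosen genes were named, with every pathway list gene past the threshold. Members and lists were chosen with earlier results of these data known. Figures used matplotlib 3.10.9. Promoter sequences were found for 6 of 9 genes.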

Additional observations from a re-analysis of the deposited data

How the results depend on the processing

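The 13 alternatives were a replicate block, 2 filters on dim genes, 2 normalizations, the mean of a gene's probe sets, every probe set, 2 variance priors and leaving out each array. All kept the direction of Pgf, Flt1 and Ldha. Of all genes, 747 were higher and 663 lower. The counts were 433 and 405 with the replicate block, 1477 and 1359 with the filter at the median level, 1425 and 1381 with the trended prior, and 1271 and 1120 at an adjusted p under 0.1. Leaving out an array gave 150 to 322 higher and 220 to 316 lower. Among the 9 genes the count lower was then 0 to 2, with 0 without shLDHA replicate 2 and 1 without shLDHA replicate 1. The log2 changes were then -0.93 to -0.74 for Pgf, -0.69 to -0.60 for Flt1 and -0.73 to -0.45 for Ldha. The deviations of same-numbered arrays correlated at r = -0.03 across genes, which cannot show whether same-numbered arrays shared a culture or a batch. With the replicate block Pgf and Flt1 passed, and Ldha (-0.59) had an adjusted p of 0.0734. Among the pathway lists, the block left 1 fall in place of 3 among other angiogenic factors and 5 rises in place of 6 and 0 falls in place of 1 among hypoxia-induced genes, and the median filter or the trended prior gave 1 rise in place of 0 for PPAR genes and 2 in place of 1 for other angiogenic factors. The number of arrays limits precision.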
